A study of Anser cygnoides with 6 samples.

Results

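The Z-disc, LIM-domain and costamere linker genes described here are LMCD1, ABLIM1, SORBS2, SVIL, CMYA5, MYOZ1, PDLIM5 and FHL2. They were found by symbol in the gene table of a study of Shitou goose myoblasts, which holds 14283 genes, and all 8 had a row. These genes were picked with their values in the comparison of DM with GM known, so their differences between the stages are given as a description and without p-values. They were part of the fit of all genes, and nothing is read from the counts of them past its thresholds. The myoblasts, precursors of muscle fibers, were taken from leg muscles of goose embryos, mixed, and divided into 6 cultures of WT cells. The DM cultures (3 libraries) were differentiated in medium with 2% horse serum, a medium in which myoblasts fuse into myotubes. The sample records give 2 to 4 days of differentiation, and the study's methods give 3 days. The GM cultures (3 libraries) were collected while proliferating in medium with fetal bovine serum. The sample records give 15% of this serum, and the study's methods also name a higher percentage. The methods describe these cultures as drawn from the same mixed pool, while the study's text also speaks of separate geese and the labels do not settle it, so the p-values measure the spread between these libraries, whether of cultures or of animals.

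The Z-disc is the plate at the end of each sarcomere that anchors the actin filaments through alpha-actinin, and the costamere is the protein assembly that ties the outermost Z-discs to the cell membrane. Many of the proteins at both places are adaptors. The LIM domain, a zinc-binding fold that holds other proteins, occurs in LMCD1, ABLIM1, PDLIM5 and FHL2, whereas SORBS2 carries SH3 domains, SVIL belongs to the villin and gelsolin family, and MYOZ1 and CMYA5 bind alpha-actinin without a LIM domain. Several of these proteins also leave the cytoskeleton or hold signaling enzymes, in particular calcineurin, the calcium-dependent phosphatase that activates NFAT transcription factors. The gene table annotated 4 of the 8 genes with zinc ion binding, the same 4 that carry LIM domains, and 1 gene, SVIL, with the costamere.

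Levels are FPKM (fragments per kilobase of transcript, scaled to the mapped fragments of the library), which can be set side by side between genes. The 10381 genes averaging 0.5 FPKM or more were fitted with limma as log2(FPKM + 1). DEGs are those whose p-value, adjusted by Benjamini-Hochberg, lay under 0.05 and whose log2 fold change, DM over GM, exceeded 1 in absolute size. DEGs made up 4.02% of these genes, 30.3% passed on the adjusted p-value alone, and in 48.6% the values of the stages did not overlap. The median FPKM of the genes above 0.0001 FPKM was 3.82 to 3.94 in the DM libraries and 3.70 to 3.80 in the GM libraries. Across genes, which are no replicates, log2(FPKM + 1) correlated at 0.965 to 0.974 within a stage and at 0.929 to 0.936 between stages.

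Markers of muscle cells followed the labels in part. The summed level of 5 myoblast markers, among them PAX7, MYF5 and MYOD1, was 30.6 to 32.5 FPKM in DM and 79.5 to 88.8 FPKM in GM, and 3 of 4 tested were down-regulated DEGs. The sum of 12 myotube markers, among them MYH15 and MYL1, was 586.5 to 607.1 FPKM in DM and 295.2 to 315.6 FPKM in GM, with 3 of 12 up-regulated DEGs and 0 down-regulated DEGs. MYL1 alone averaged 388 FPKM in DM and 141 FPKM in GM, so it weighs heavily in that sum. The median log2 fold change of the 12 was 0.46, with 10 positive and 2 negative. MYOG, the transcription factor of early differentiation, had 19.1 ± 3.26 FPKM in DM and 26.3 ± 2.37 FPKM in GM (SD, n = 3 each), with a log2 fold change of -0.45 that did not pass (limma adjusted p = 0.0528).

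Markers of fibroblasts, which the study had depleted by serial plating, also moved with the stage. Their sum over 10 genes, made up mostly by the collagen genes COL1A1, COL1A2 and COL3A1 and by DCN and LUM, was 6135 to 6231 FPKM in DM and 2805 to 2950 FPKM in GM, and 5 of 9 tested were up-regulated DEGs. The sum of 6 endothelial markers was at most 1.53 FPKM in DM and 2.91 FPKM in GM. Because these are bulk libraries, fewer cells of a type and less RNA per cell cannot be told apart, and the part of the fibroblast markers' rise in the values below was not tested.

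The 8 genes went in both directions. MYOZ1, SVIL, ABLIM1, SORBS2 and CMYA5 had higher FPKM in every DM library than in any GM library, and FHL2, PDLIM5 and LMCD1 had lower FPKM in every DM library than in any GM library. Among all genes tested, 23% did not overlap with DM higher and 25.7% did not overlap with DM lower. The genes had been selected on this contrast, so the count of 5 higher and 3 lower says nothing of other genes of their kind. The ratios of mean FPKM ran from 4.77-fold higher in DM for SORBS2 to 28.1-fold lower in DM for LMCD1.

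**Figure D1:**
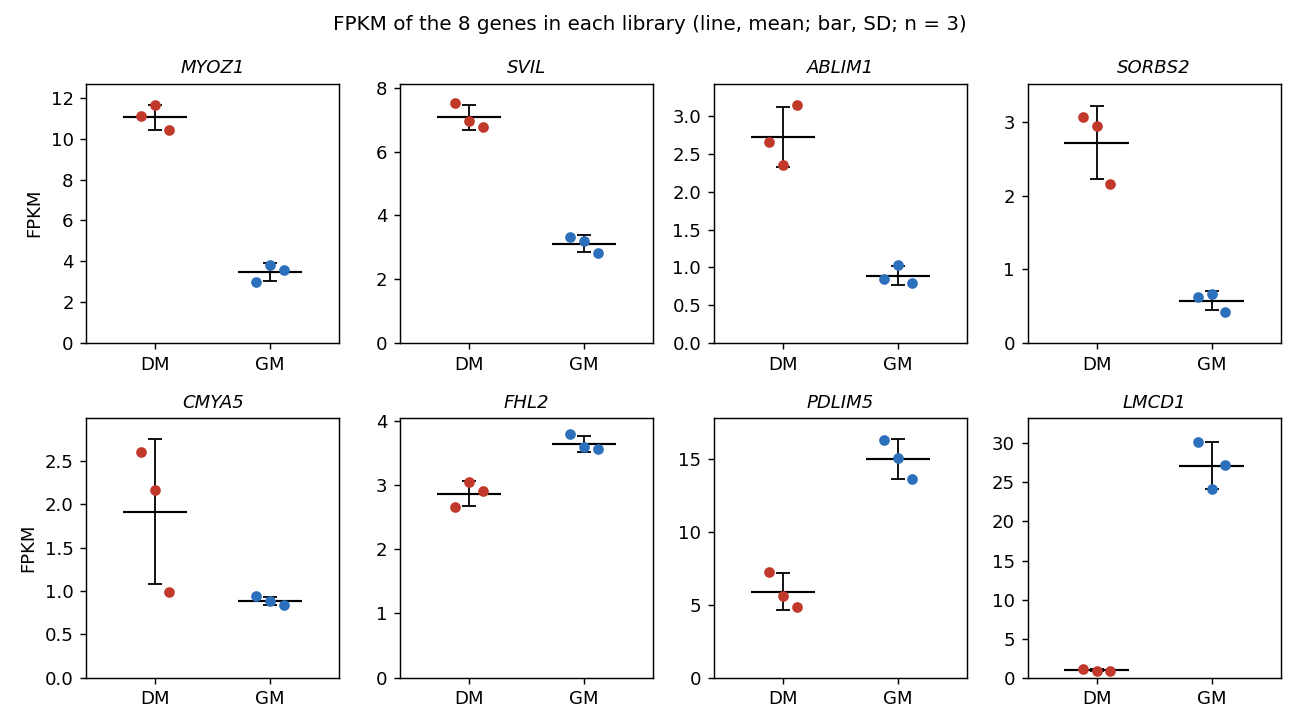
FPKM of each of the 8 genes (vertical axes, linear and starting at 0) in the 3 DM libraries (red) and the 3 GM libraries (blue), where the line is the mean and the bar the SD. In 5 genes all DM points lie above all GM points, and in FHL2, PDLIM5 and LMCD1 all DM points lie below; CMYA5 in DM spreads most for its level, from 0.982 to 2.60 FPKM.

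LMCD1 encodes LIM and cysteine-rich domains protein 1 (dyxin), a transcriptional cofactor that restrains GATA6 and that promotes calcineurin signaling in the mouse heart. It had 1.14, 0.893 and 0.867 FPKM in the DM libraries and 30.1, 24.1 and 27.2 FPKM in the GM libraries. The highest DM library was thus far below the lowest GM library. The means were 0.967 ± 0.152 FPKM in DM and 27.1 ± 3.0 FPKM in GM (SD, n = 3 each). The log2 fold change on the scale of FPKM + 1 was -3.84 (SE 0.11), the second most negative value of the 5479 genes with a negative log2 fold change, and it stayed from -3.92 to -3.76 when single libraries were left out. Since 1 is added to each FPKM, that value understates the change of a gene near 1 FPKM, and the log2 ratio of the means was -4.81.

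PDLIM5 encodes ENH, a PDZ and LIM domain protein that binds alpha-actinin at the Z-disc and protein kinase C through its LIM domains. It had 7.28, 5.59 and 4.82 FPKM in DM and 16.3, 15.1 and 13.6 FPKM in GM, so the stages were well apart although the DM libraries spread more for their level. The ratio of means was 2.55-fold lower in DM, with a log2 fold change of -1.23 (SE 0.14).

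FHL2, whose row the table describes by a parrot protein, encodes a LIM-only protein that binds titin and also acts as a transcriptional cofactor. Its levels were 2.65, 3.04 and 2.90 FPKM in DM and 3.79, 3.59 and 3.55 FPKM in GM. This was the smallest difference of the 8 genes, with a log2 fold change of -0.27 (SE 0.08) that stood in place 2502 among the 5479 genes with a negative value.

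MYOZ1 encodes myozenin-1 (calsarcin-2), a Z-disc protein that ties alpha-actinin and filamin C to calcineurin and restrains that enzyme in mouse fast muscle. It had 11.1, 11.6 and 10.4 FPKM in DM and 2.97, 3.81 and 3.59 FPKM in GM. The means were 11.1 ± 0.605 FPKM in DM and 3.46 ± 0.439 FPKM in GM (SD, n = 3 each), a ratio of 3.197, and the log2 fold change was 1.44 (SE 0.10). MYOZ1 was the highest of the 8 genes in DM.

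SORBS2 encodes the SH3 adaptor ArgBP2, which lies along stress fibers and at Z-discs. It had 3.06, 2.94 and 2.16 FPKM in DM and 0.630, 0.659 and 0.424 FPKM in GM, and the lowest DM library stood above the highest GM library by more than the range of either stage. The ratio of means, 4.77, was the largest of the 8 in that direction, while the log2 fold change on the scale of FPKM + 1 was 1.24 (SE 0.12) because the levels are near 1 FPKM. The gene table joins 19 RefSeq transcripts in this row and 13 in that of ABLIM1, against 1 or 2 for the other genes. For both genes the row thus pools many isoforms. The study reports both as differentially spliced between the stages, and the part of splicing in these values was not tested.

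ABLIM1 encodes actin-binding LIM protein 1, whose LIM domains and villin headpiece couple actin filaments to partner proteins. It had 2.66, 2.36 and 3.15 FPKM in DM and 0.852, 1.03 and 0.792 FPKM in GM. The groups did not overlap, the ratio of means was 3.05, and the log2 fold change of 0.97 (SE 0.11) lay just under the limit of 1, above which it stood with a pseudocount of 0.1, at 1.51.

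SVIL encodes supervillin, a membrane-bound protein of the costamere that binds actin and myosin II. It had 7.51, 6.96 and 6.76 FPKM in DM and 3.32, 3.18 and 2.81 FPKM in GM, with narrow spread in both stages. Its ratio of means was 2.28 and its log2 fold change 0.98 (SE 0.09).

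CMYA5 encodes myospryn, a large protein that binds alpha-actinin, desmin and the protein kinase A regulatory subunit near Z-discs and costameres. It had 2.60, 2.16 and 0.982 FPKM in DM and 0.937, 0.879 and 0.841 FPKM in GM. The DM_3 library was thus barely above the GM libraries while the others were over 2 FPKM. The log2 fold change was 0.58 (SE 0.22), with 0.41 without DM_1, 0.50 without DM_2 and 0.84 without DM_3.

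The count of DEGs among the 8 genes was 4 (background 4.02%), with MYOZ1 and SORBS2 higher in DM (background 2.18%) and PDLIM5 and LMCD1 lower (background 1.84%). On the adjusted p-value alone 7 passed (background 30.3%), all but CMYA5, of which 4 were higher in DM (background 14.7%) and 3 lower (background 15.5%). With quantile normalization, with a replicate block and with any single library left out, only 2 lower genes passed. Without DM_3, 5 higher genes passed. These counts repeat the contrast by which the genes were chosen, and nothing is read from them. The study, which tested with edgeR, lists SORBS2, ABLIM1, SVIL and CMYA5 among its genes both differentially expressed and differentially spliced. Of these, ABLIM1, SVIL and CMYA5 were not DEGs in the limma fit used here. That fit adds 1 to each FPKM, so its fold limit is on another scale than that of the study. ABLIM1 and SVIL missed only this limit, while CMYA5 did not pass on the adjusted p-value either. The log2 ratios of their mean FPKM were 1.61 for ABLIM1, 1.19 for SVIL and 1.11 for CMYA5.

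The order of the 8 genes by level differed between the stages. In DM, MYOZ1 was highest at 11.1 FPKM, above SVIL at 7.08 FPKM with no overlap, and PDLIM5 followed at 5.90 FPKM with a range that overlapped that of SVIL. FHL2 (2.87 FPKM) came next and did not overlap with PDLIM5. Below it ABLIM1 (2.72 FPKM), SORBS2 (2.72 FPKM), CMYA5 (1.91 FPKM) and LMCD1 (0.967 FPKM) each overlapped the gene above. In GM, LMCD1 was highest at 27.1 FPKM, PDLIM5 followed at 15.0 FPKM, and both were apart from the rest. FHL2 (3.64 FPKM), MYOZ1 (3.46 FPKM) and SVIL (3.10 FPKM) overlapped in that order, as did ABLIM1 (0.892 FPKM) and CMYA5 (0.886 FPKM), and SORBS2 was lowest at 0.571 FPKM. LMCD1 was therefore the highest of the 8 in GM and the lowest in DM.

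Close relatives of the 8 genes were then compared. They were listed by family and not by their values, but with earlier results of these data known. Of the 12 paralogs tested, 4 rose and 4 fell at an adjusted p-value under 0.05, where the background was 30.3% of genes in either direction, and 1 was a DEG. Without DM_2, 2 rose and 3 fell. Their median log2 fold change was 0.03, beside -0.03 over all genes tested.

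The myozenins differed among themselves. MYOZ2, which is the calsarcin of slow and cardiac muscle in mammals, had 15.03, 16.04 and 15.01 FPKM in DM and 10.2, 12.4 and 11.7 FPKM in GM, and rose by a log2 fold change of 0.40 (limma adjusted p = 0.0173, and 0.0642 without DM_2). MYOZ3 had 4.28 ± 0.525 FPKM in DM and 4.90 ± 0.208 FPKM in GM (SD, n = 3 each), and its log2 fold change of -0.16 did not pass (limma adjusted p = 0.243). The share of MYOZ1 in the summed FPKM of the 3 myozenins was 35.6% to 36.6% in the DM libraries and 16.7% to 17.97% in the GM libraries. MYOZ2 had more FPKM than MYOZ1 in all 6 libraries.

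FHL2 was the lowest of its family, and its relatives moved both ways. FHL1, the LIM-only protein of striated muscle whose mutations cause human myopathies, rose to 24.2, 21.4 and 17.99 FPKM in DM, against 14.2, 11.5 and 11.4 FPKM in GM (log2 fold change 0.73, limma adjusted p = 0.0103). The row that the table describes as FHL3 rose by 0.33 on the log2 scale (limma adjusted p = 0.0301), but it passed only without DM_1 when single libraries were left out (adjusted p = 0.0137 to 0.0937). FHL5 fell to 24.6 ± 2.93 FPKM in DM, against 33.9 ± 1.92 FPKM in GM (SD, n = 3 each), a log2 fold change of -0.45 (limma adjusted p = 0.0187), and did not pass without DM_2, GM_1 or GM_2 (adjusted p = 0.0516, 0.0602 and 0.0655). The summed FPKM of these genes and FHL2 was 62.3 to 70.5 in DM and 60.5 to 66.7 in GM, so the ranges of the family total overlapped. FHL2 held 3.76% to 4.65% of that sum in DM and 5.48% to 5.87% in GM.

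In the PDZ and LIM family, 2 relatives fell with an adjusted p-value under 0.05 and 0 rose. PDLIM3, the alpha-actinin-associated LIM protein, fell to 12.8, 11.9 and 11.4 FPKM in DM, against 18.8, 21.9 and 19.6 FPKM in GM (log2 fold change -0.69, limma adjusted p = 0.00205). PDLIM4 fell by 0.67 on the log2 scale (limma adjusted p = 0.0102). PDLIM7 (-0.18, adjusted p = 0.342), PDLIM1 (0.22, adjusted p = 0.176) and LDB3, which encodes the Z-disc protein ZASP (0.43, adjusted p = 0.149, all from limma), did not pass. The sum over these genes and PDLIM5 was 45.8 to 51.3 FPKM in DM and 68.4 to 73.0 FPKM in GM, of which PDLIM5 made 10.5% to 14.2% in DM and 18.7% to 23.3% in GM. TES, which encodes testin, a LIM protein of focal adhesions with a domain layout like that of LMCD1, fell to 5.59 ± 0.466 FPKM in DM, against 10.5 ± 1.051 FPKM in GM (SD, n = 3 each), with a log2 fold change of -0.80 (limma adjusted p = 0.00254).

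**Figure D2:**
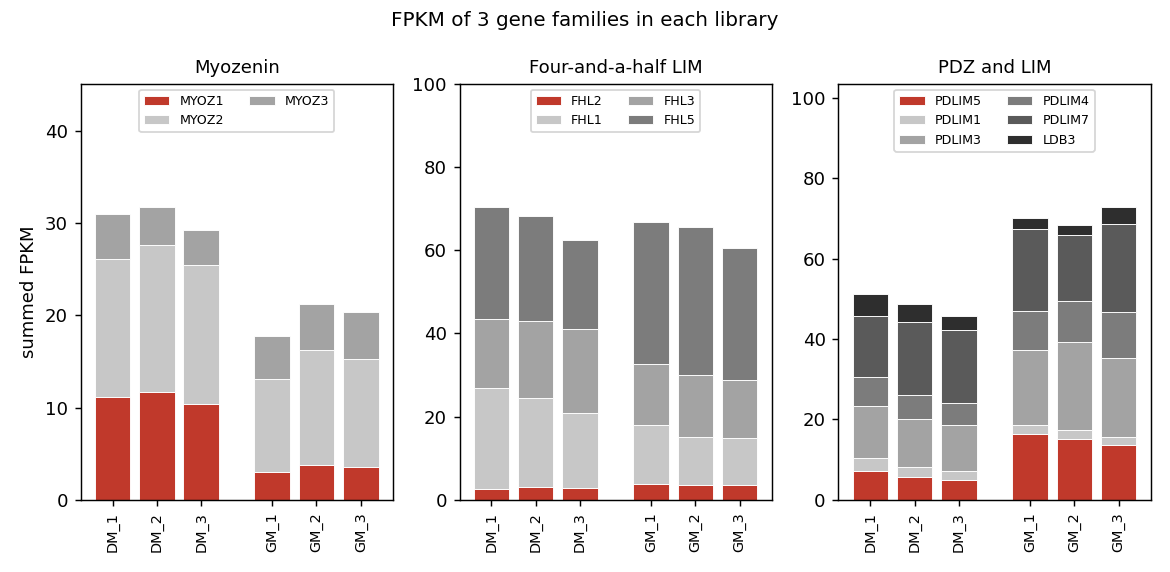
Summed FPKM (vertical axes, linear and starting at 0) of the myozenin, FHL, and PDZ and LIM genes in each library, DM left and GM right, with MYOZ1, FHL2 and PDLIM5 in red and their relatives in grey. The red part of the myozenin bars is 35.6% to 36.6% in DM and 16.7% to 17.97% in GM, while the heights of the FHL bars overlap between the stages.

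Further lists of Z-disc, costamere and LIM-domain genes, written from their known roles, were read from the same fit. These lists too were drawn with earlier results of these data known. Of 23 other Z-disc genes tested, 4 rose and 8 fell at an adjusted p-value under 0.05, with a median log2 fold change of -0.04, and 1 in each direction was a DEG. ACTN2, the alpha-actinin of the sarcomeric Z-disc, rose to 22.4, 20.6 and 20.0 FPKM in DM, against 10.1, 9.89 and 9.53 FPKM in GM (log2 fold change 1.02, limma adjusted p = 0.000341). It sat at the fold limit, at 0.97 without DM_1 and 0.999 without GM_3, where it was no longer a DEG.

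Below the fold limit, the genes of this list that rose were SYNPO2 (log2 fold change 0.80), NRAP (0.57) and SMPX (0.53), all known from striated muscle. SMPX was low in both stages, at 0.872 FPKM in DM and 0.302 FPKM in GM. Genes of the list that fell included FLNC (-0.61), which encodes the muscle filamin, and the nonsarcomeric alpha-actinin gene ACTN1 (-0.46). PALLD (-0.47), which encodes the actin bundler palladin, and the LIM-only genes CSRP1 (-0.99) and CSRP2 (-0.91) fell too. The merged row that holds MYOT was left off this list. It rose from 4.22 FPKM in GM to 9.03 FPKM in DM (log2 fold change 0.94, limma adjusted p = 0.00167). It is counted among the annotated genes, of which 11 rose and 10 fell. CSRP1 passed only without DM_1 when single libraries were left out. TTN, the gene of titin, had 16.9 ± 6.12 FPKM in DM and 15.6 ± 2.84 FPKM in GM (SD, n = 3 each) and did not pass (limma adjusted p = 0.854).

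Most genes of the costamere list did not pass the test. Of 14 tested, SPTAN1, the gene of alpha-spectrin, rose by a log2 fold change of 0.46 and VCL, the gene of vinculin, fell by 0.77 on the log2 scale. The other 12 had an adjusted p-value above 0.05, among them TLN1, ITGB1, ILK and PARVA. Nearest to the threshold were SPTBN1 (0.64, adjusted p = 0.0527 from limma) and PARVB (0.39, adjusted p = 0.0557 from limma). The median log2 fold change of the 14 was -0.0019. DMD, which the study counts under the costamere, was off this list and rose by 0.63 on the log2 scale (limma adjusted p = 0.0131). Of 17 other LIM-domain genes tested, 3 rose and 6 fell, with a median of -0.16. Without GM_2 or GM_3 1 rose and 4 fell, without DM_2 2 rose and 4 fell, and without DM_3 1 rose and 6 fell. PRICKLE2 (0.45) rose in all of these fits, whereas PRICKLE1 (0.56) did not pass in 5 and LIMCH1 (0.94) in 4 of the 6 fits without a library, and the focal adhesion genes LPP (-0.92) and PXN (-0.56) were among those that fell, while ZYX, the gene of zyxin, had -0.75 and did not pass (limma adjusted p = 0.0801). The share of genes with an adjusted p-value under 0.05 was 52.2% for the Z-disc list, 14.3% for the costamere list and 52.9% for the LIM-domain list over all libraries, beside 30.3% of all genes.

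**Figure D3:**
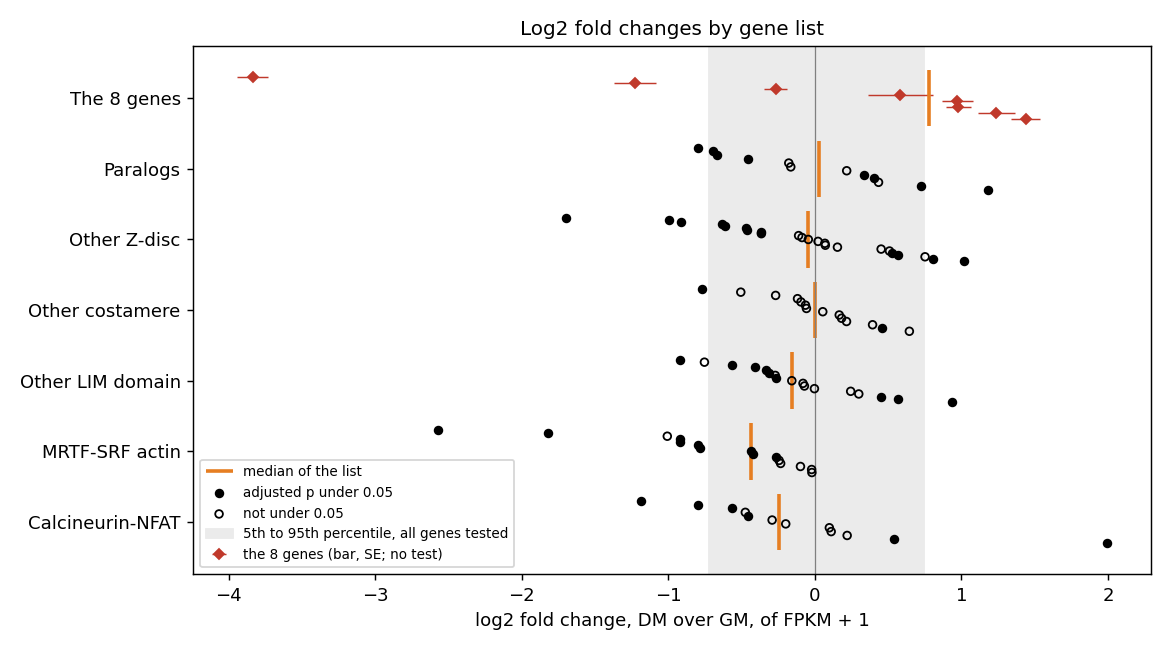
Log2 fold change (DM over GM, horizontal axis) of the 8 genes (red diamonds, bar for the SE, drawn without p-values) and of 6 lists. Genes of the lists are circles, filled at an adjusted p-value under 0.05 from limma. The median of each list is an orange line, and the range that holds most genes tested is in grey. LMCD1 lies farthest out at -3.84, and the MRTF-SRF list has a median of -0.43 with no gene above 0 (1 gene above 0 under quantile normalization and without some single libraries).

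Many genes of actin linkers are targets of SRF and its actin-sensing cofactors, the MRTFs, so a list of that pathway was read as well. That list was also drawn with earlier results of these data known. All 15 genes tested had a negative log2 fold change, and at least 14 of 15 did with quantile normalization and with single libraries left out, where 5479 of all 10381 genes were negative. At an adjusted p-value under 0.05, 9 fell and 0 rose (7 to 11 fell with single libraries left out), where 15.5% of all genes fell, and with the fold limit 2 were DEGs. CCN1, listed in the table as CYR61, fell to 42.2, 32.1 and 24.4 FPKM in DM, against 183, 211 and 194 FPKM in GM (log2 fold change -2.57, limma adjusted p = 0.000490). CCN2, listed as CTGF, fell to 59.1, 45.2 and 39.5 FPKM in DM, against 168, 173 and 168 FPKM in GM (log2 fold change -1.82, limma adjusted p = 0.000591). SRF itself fell to 25.6 ± 0.499 FPKM in DM, against 44.7 ± 0.978 FPKM in GM (SD, n = 3 each), with a log2 fold change of -0.78 (limma adjusted p = 0.000341), and ACTA2 (-0.92), ACTB (-0.80) and CNN2 (-0.92) fell too. The stages differed in their serum as well as in differentiation, and these cannot be told apart.

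Because LMCD1 and MYOZ1 both act on calcineurin, the genes of that pathway were set beside them, from a list added after the tables were opened. Of 12 tested, 2 rose and 4 fell at an adjusted p-value under 0.05, where 30.3% of all genes passed, and 2 were DEGs, where 4.02% of all genes were. Only 2 fell without DM_2, DM_3 or GM_1 and with no filter on low values. RCAN1, an inhibitor of calcineurin and itself a target of NFAT, fell to 23.8, 23.9 and 21.4 FPKM in DM, against 52.5, 57.9 and 51.0 FPKM in GM (log2 fold change -1.19, limma adjusted p = 0.000341). RCAN2, a related inhibitor, rose to 4.75, 14.3 and 12.9 FPKM in DM, against 1.91, 1.46 and 1.71 FPKM in GM (log2 fold change 1.99, limma adjusted p = 0.0111), with DM_1 well below the other DM libraries. PPP3CC, a catalytic subunit of calcineurin, fell by 0.57 on the log2 scale, NFATC2 by 0.79 and GATA6, the factor that LMCD1 restrains, by 0.46 (adjusted p = 0.00426, 0.0265 and 0.0466 from limma). Another catalytic subunit gene, PPP3CA, did not pass (log2 fold change 0.10, limma adjusted p = 0.668). The merged row that holds PPP3CB, left off this list, did not pass either (0.27, limma adjusted p = 0.145). NFATC2 did not pass without DM_2, DM_3 or GM_1, and GATA6 passed only without DM_1 when single libraries were left out, while MEF2C rose by 0.54 (limma adjusted p = 0.00142).

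The study also deposited FPKM of 14993 assembled lncRNA transcripts, and 5 of them lay at the 8 genes, 4 in introns of SORBS2 and 1 in an intron of PDLIM5, each of a single exon. In the coordinates of the deposited table, which are those of the GooseV1.0 scaffolds, the SORBS2 transcripts lay on NW_013185689.1 from 3863394 to 3863874, 3865753 to 3866347, 3874147 to 3875062 and 3876820 to 3877181, with no strand assigned. The PDLIM5 transcript lay on the plus strand of NW_013185756.1 from 1398388 to 1399789. Reads of unspliced RNA of the host gene cannot be told apart from such transcripts here.

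All 5 differed in the direction of their host gene. The SORBS2 transcript of 481 bases had 1.24, 1.77 and 1.63 FPKM in DM and 0.290, 0.720 and 0.429 FPKM in GM. That of 595 bases had 1.67, 0.669 and 1.47 FPKM in DM and 0.449, 0.132 and 0.152 FPKM in GM, and that of 916 bases had 1.53, 0.708 and 0.673 FPKM in DM and 0.320, 0.253 and 0.242 FPKM in GM. In each the DM values lay above all GM values, as they did for SORBS2 itself. The last, of 362 bases, had 1.08, 1.81 and 0.361 FPKM in DM and 0.197 and 0.109 FPKM in GM_1 and GM_2, and was listed at 0 in GM_3.

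The PDLIM5 transcript of 1402 bases had 1.14, 0.573 and 0.254 FPKM in DM and 1.57, 1.45 and 1.49 FPKM in GM, so every DM library was lower. In the fit over 12988 lncRNA transcripts limma called 0 of the 5, and 0 passed on the adjusted p-value, while 5 had an unadjusted p-value under 0.05, as did 25.8% of all transcripts. The 4 SORBS2 transcripts averaged 0.102 to 0.480 FPKM in GM, under the filter of 0.5 FPKM. They were thus tested only through their DM values, and nothing is read from setting the 5 beside that share. Of all transcripts 2.01% were called and 3.62% passed on the adjusted p-value, 2.64% with DM lower. Of all transcripts tested, 32.3% did not overlap, 7.3% with DM higher and 25% with DM lower. These transcripts come from the same libraries and contrast as the genes and are no independent support for them.

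**Figure D4:**
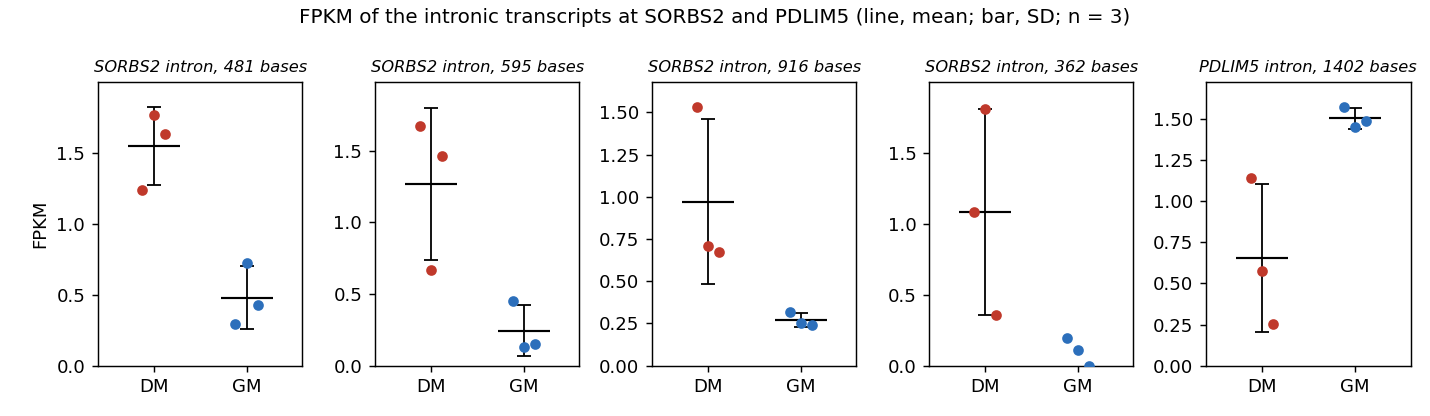
FPKM (vertical axes, linear and starting at 0) of the 4 intronic transcripts at SORBS2 and the 1 at PDLIM5 in the 3 DM libraries (red) and the 3 GM libraries (blue), with the mean as a line and the SD as a bar, left out where a library is listed at 0. All DM points lie above the GM points at SORBS2 and below them at PDLIM5.

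The coverage behind these low values can be read from the table. In each library the low FPKM of single-exon transcripts, multiplied by their length, were whole multiples of a fixed step in 96.6% to 98.0% of cases, within 0.1 of a step. Read as 1 aligned base, the step puts the libraries at 5.69 to 6.87 Gb of mapped bases in DM and 6.23 to 7.16 Gb in GM. The SORBS2 transcripts then rest on 846 to 7995 aligned bases per DM library and at most 2477 per GM library, and the PDLIM5 transcript on 2308 to 9119 aligned bases per DM library and 13001 to 14757 per GM library.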

How the data were processed

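The authors cleaned the reads with Cutadapt and aligned them to GooseV1.0, for which the methods name Bowtie2 and the submitters' processing notes HISAT2 and TopHat. Transcripts were assembled with StringTie, and the deposited FPKM of genes and lncRNA transcripts come from StringTie and Ballgown. Zeros are written as 0.0001. Their own fold changes and p-values in the same tables were not used. The authors tested with edgeR, which needs read counts. Here log2(FPKM + 1) of all genes or transcripts averaging 0.5 FPKM or more was fitted with limma 3.58.1 (R 4.3.3, eBayes with a trend), with Benjamini-Hochberg adjustment over everything tested. The method was also run on simulated data with independent noise and changes set above the fold limit. That run does not show how smaller changes are recovered. Python 3.11.15 served for summaries and figures. Read counts were not used here, so no counting intervals are given. With 3 libraries a stage, 0.1 is the smallest p that exact permutation could give, so none was run.

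The 8 genes and the lists were chosen with earlier results of these data known. The named genes are the 8 genes, every paralog tested, and the DEGs of each list, up to 5 in each direction, except that some results are not reported here, although the counts include them. Other genes of a list are named as examples, chosen after their values were seen. The calcineurin list, the annotated Z-disc and costamere genes and the neighbouring genes were added after the tables were opened. Of 108 genes listed, 85 had a row of their own, by symbol, older symbol, RefSeq gene ID (the Taihu goose assembly, for names only) or description. Rows that merge several genes were left out of these lists. They were kept among the annotated Z-disc and costamere genes, where the row that holds MYOT is counted. The planned search of promoters and proteins was not run. As alternatives the pseudocount was 0.1, the filter was dropped or set to 2 FPKM, libraries were quantile normalized, the trend or the fold limit was dropped, the replicate number was a block, and single libraries were left out.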

Additional observations from a re-analysis of the deposited data

How the results depend on the processing

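Without the fold limit 3143 genes (30.3%) passed in place of 417 (4.02%), and 7 in place of 4 of the 8 genes. Of the other listed genes, which are the paralogs and the Z-disc, costamere, LIM and SRF genes together, 40 passed in place of 5. Among these, 8 in place of 1 were paralogs. With a pseudocount of 0.1, 810 genes and 10 of the other listed genes were called, LMCD1 had a log2 fold change of -4.68 and SORBS2 2.08. With quantile normalization 1 of the 5 intronic transcripts was called in place of 0. When single libraries were left out, the count of the other listed genes ran from 4 to 8, the highest without DM_1. That of the 8 genes, which were chosen on this contrast, ran from 4 to 5, and that of all genes from 407 to 427, with 10361 to 10403 tested. Nothing is read from the counts of the 8 genes under any of these settings. The numbers of the cultures are not stated to pair the stages, and the values do not settle it. Across genes, the deviations of same-numbered libraries correlated at -0.0024 to 0.0337, and those of the other pairs at -0.0637 to 0.048. Across lncRNA transcripts these ranges were 0.028 to 0.0945 and -0.0938 to 0.0369. In both, DM_1 and DM_2 correlated best with the GM library of their number, and DM_3 with GM_2. Under a replicate block, 403 of 10381 genes, 5 of the other listed genes, 1 of these a paralog, and 4 of the 8 genes were called. In that fit FHL3 (adjusted p = 0.0678 from limma) and NFATC2 (0.0537) no longer passed. No direction of the 8 genes or of a named paralog turned under these alternatives. The cause of these shifts was not tested, beyond the weaker pull of a smaller pseudocount on low values. With 3 libraries a stage and no counts, small differences at low FPKM, as in CMYA5, are the least certain.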

Other observations

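Genes next to the 8 genes were looked up by name in the gene order of RefSeq's Taihu goose assembly, a choice made after the tables were opened. Of 16 neighbours, 12 had a row of their own under the name looked up, 8 of these were tested and 1 passed in limma at an adjusted p-value under 0.05. This was PDLIM3, which lies beside SORBS2 and fell (log2 fold change -0.69, adjusted p = 0.00205), whereas SORBS2 was higher in DM. SYNPO2L, a Z-disc gene beside MYOZ1, had 6.17 ± 1.21 FPKM in DM and 3.49 ± 1.85 FPKM in GM (SD, n = 3 each) and did not pass (log2 fold change 0.75, adjusted p = 0.127 from limma). USP54, on the other side of MYOZ1, is not among the 12. It shares a merged row with PPP3CB, which did not pass (adjusted p = 0.145 from limma). LMCD1 lies between SSUH2, at 1.15 ± 0.472 FPKM in DM and 0.482 ± 0.531 FPKM in GM (adjusted p = 0.175 from limma), and GRM7, at 0.286 ± 0.0130 FPKM in DM and 0.278 ± 0.0260 FPKM in GM (SD, n = 3 each), which was below the limit of 0.5 FPKM and not tested.

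Of the genes other than the 8 that the gene table annotates with the Z-disc or the costamere, 54 were tested, 11 rose and 10 fell at an adjusted p-value under 0.05, and 2 were DEGs, ACTN2 and CASQ2, the calcium store protein calsequestrin-2, both higher in DM (1 DEG without DM_1, GM_1 or GM_3, 3 without DM_2, and 5 with a pseudocount of 0.1). The share past the adjusted p-value was 38.9%, beside 30.3% of all genes, and 19 of the 63 annotated genes are also on the lists of Z-disc, costamere, LIM and SRF genes and paralogs.

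The genes whose log2(FPKM + 1) over the 6 libraries was most like the mean scaled profile of the 8 genes were SPIN1, ARRDC4, LOC106045936, UNC5C and ZC3H12A, with Pearson's r between 0.986 and 0.989. Since 5 of the 8 genes are higher and 3 lower in DM, that mean profile largely cancels and the likeness is a description only.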
